A study of Mus musculus with 6 samples.

Results

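Dividing cells in the pregnant uterus were followed through 40 cell proliferation genes. The genes were chosen by name, with earlier results of these data known. They were split into 15 genes of S phase, when DNA is copied, and 25 genes of mitosis, when the copied chromosomes are separated. All 40 were found among the 55055 genes of the deposited tables, and 40 of 40 had enough counts to be tested. The tissue was myometrium, the contractile wall of the uterus, taken in late pregnancy, at E19.5 in the sample labels and gestational day 19 in the series design. Poly(A)-selected libraries were made from 3 wild-type (TCF23 WT) and 3 knockout (TCF23 KO) animals, in which Tcf23, a gene for a basic helix-loop-helix protein, had been disrupted with CRISPR/Cas9, 1 library per animal. No Cre, tissue-specific promoter or treatment is named in the labels, which also leave out strain and maternal age. The design compares the knockout with the wild-type animals.

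A cell commits to division when E2F transcription factors switch on the genes that load and fire replication origins and that make nucleotides. Later the transcription factor FOXM1, together with the MuvB complex and B-MYB, switches on the genes of the spindle, the kinetochore and cytokinesis. In resting cells the DREAM complex keeps both sets low. The muscle layer of the mouse uterus is known to grow by cell division early in pregnancy and mainly by enlargement of the muscle cells later on.

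The letters in front of the start sites of these genes differed in part between the 2 sets, and 5 promoters are shown as examples of genes with the 2 library patterns described below. The sequences are the 250 bases before the start site in RefSeq (GRCm38.p6), 5′ to 3′ on the strand of the gene, with motif matches in capitals: Mki67 (chr7:135716380-135716629, minus strand), Kif11 (chr19:37376132-37376381, plus strand) and Cdc20 (chr4:118437344-118437593, minus strand) of the mitotic genes, and Mcm5 (chr8:75109259-75109508, plus strand) and Mcm6 (chr1:128359706-128359955, minus strand) of the S-phase genes.
Mki67: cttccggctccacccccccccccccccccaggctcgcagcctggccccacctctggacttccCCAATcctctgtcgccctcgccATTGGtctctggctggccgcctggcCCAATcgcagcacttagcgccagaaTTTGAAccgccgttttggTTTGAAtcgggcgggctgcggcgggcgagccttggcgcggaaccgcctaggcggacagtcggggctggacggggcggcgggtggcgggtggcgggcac
Kif11: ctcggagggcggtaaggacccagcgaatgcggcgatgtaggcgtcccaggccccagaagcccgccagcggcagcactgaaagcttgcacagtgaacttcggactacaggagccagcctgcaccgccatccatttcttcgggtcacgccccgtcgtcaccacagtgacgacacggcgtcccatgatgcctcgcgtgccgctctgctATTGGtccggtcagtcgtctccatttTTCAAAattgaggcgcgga
Cdc20: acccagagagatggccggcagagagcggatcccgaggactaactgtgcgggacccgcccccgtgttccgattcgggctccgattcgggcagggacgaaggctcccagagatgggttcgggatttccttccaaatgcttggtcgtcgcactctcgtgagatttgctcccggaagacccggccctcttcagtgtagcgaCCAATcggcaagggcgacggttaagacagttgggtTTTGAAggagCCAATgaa
Mcm5: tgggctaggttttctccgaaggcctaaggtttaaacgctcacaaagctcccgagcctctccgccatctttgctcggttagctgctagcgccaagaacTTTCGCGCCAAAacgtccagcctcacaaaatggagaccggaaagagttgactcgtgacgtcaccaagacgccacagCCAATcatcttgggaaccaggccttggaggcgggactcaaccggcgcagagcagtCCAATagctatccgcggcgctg
Mcm6: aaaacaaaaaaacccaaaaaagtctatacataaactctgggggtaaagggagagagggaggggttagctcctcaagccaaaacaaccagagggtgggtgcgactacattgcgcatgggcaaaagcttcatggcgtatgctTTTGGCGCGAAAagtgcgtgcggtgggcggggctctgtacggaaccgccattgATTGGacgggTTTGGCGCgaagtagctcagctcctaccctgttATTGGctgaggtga
Capitals mark TTTGAA (the core of the cell cycle homology region, bound by MuvB), CCAAT (the box bound by NF-Y) and 4 E2F-type octamers, TTTCCCGC, TTTGGCGC, TTTCGCGC and TTTGCCGC, each searched on both strands, so that a match on the other strand reads as its reverse complement. In Mcm5, and again in Mcm6, 2 E2F-type matches on opposite strands overlap and appear as 1 run of capitals.

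The set of RefSeq promoters used here held an entry for 33 of the 40 genes, 13 S-phase and 20 mitotic. It held none for Ccne2, Mcm4, Ccna2, Aurkb, Kif20a, Tpx2 and Foxm1. For a gene with several starts, the most upstream start in the set was used. In a window of 300 bases, 250 before and 50 after the start site, 14 of the 20 mitotic promoters (70.0%) held TTTGAA, against 2 of the 13 S-phase promoters (15.4%) and 18.2% of 27025 promoters of all genes. The same 14 mitotic promoters also held a CCAAT box, a combination found in 2 of 13 S-phase promoters (15.4%) and 7.16% of all promoters. The CCAAT box alone was frequent in both sets, in 17 of 20 mitotic (85.0%) and 9 of 13 S-phase promoters (69.2%), against 38.0% of all promoters. An E2F-type octamer stood in 5 of 13 S-phase promoters (38.5%), those of Cdc6, Mcm3, Mcm5, Mcm6 and Mcm7, in 1 of 20 mitotic promoters (5.0%), that of Cdk1, and in 2.33% of all promoters. These are matches of letters, not bound sites. The printed promoters all hold TTTGAA (mitotic) or an E2F-type octamer (S-phase), but some other genes with the same lowest and highest libraries do not. Pcna and Uhrf1 lacked an E2F-type octamer, and Bub1 and Ccnb1 lacked TTTGAA.

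Total counts were 47345181 to 55236312 in wild-type and 39939686 to 65036402 in knockout libraries, and each member had between 182 (Ccne1, wild-type replicate 1) and 4678 counts (Pcna, wild-type replicate 3). Tcf23 had 3360 to 5970 counts in wild-type and 0 to 2 in knockout libraries, so 6 of 6 libraries matched their labels. All 10 smooth muscle markers were expressed, at summed levels of 27070 to 30970 CPM (counts scaled to a common library total) in wild-type and 15370 to 38080 in knockout. In bulk tissue, fewer dividing cells and less RNA per dividing cell cannot be told apart.

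No S-phase or mitotic gene passed the test between the genotypes. In edgeR's quasi-likelihood test, adjusted by Benjamini-Hochberg over 19599 genes, 0 of 15 S-phase and 0 of 25 mitotic genes passed an adjusted p of 0.05, where 0.0204% of all genes did. The smallest adjusted p was 0.727 (Rrm2) among S-phase genes and 0.908 (Tpx2) among mitotic genes. At an unadjusted p under 0.05 the count was again 0 of 40, against 8.56% of all genes, and DESeq2 also called 0 of 40 (smallest adjusted p = 0.726), where it called 2.01% of all genes. The 3 knockout values and the 3 wild-type values overlapped for each of the 40 genes, while 7.22% of all genes were higher and 7.01% lower in knockout without overlap.

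The median log2 change, knockout minus wild-type, was 0.13 over the S-phase genes and 0.03 over the mitotic genes, beside 0.01 over all genes tested. Fitted changes were positive for 11 of 15 and 19 of 25 genes, against 10207 of all 19599. That sign count depended on the tool and on single libraries. By limma-voom, which averages logarithms, 9 of 15 and 8 of 25 were positive. Without knockout replicate 3 the counts were 3 of 15 and 1 of 25, with medians of −0.20 and −0.33, and without knockout replicate 1 they were 12 of 15 and 25 of 25, with medians of 0.12 and 0.28. Leaving out knockout replicate 2 gave medians of 0.32 and 0.11, and leaving out wild-type replicate 1, 2 or 3 gave −0.002 to 0.28 for S-phase and −0.007 to 0.14 for mitotic genes.

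**Figure D1:**
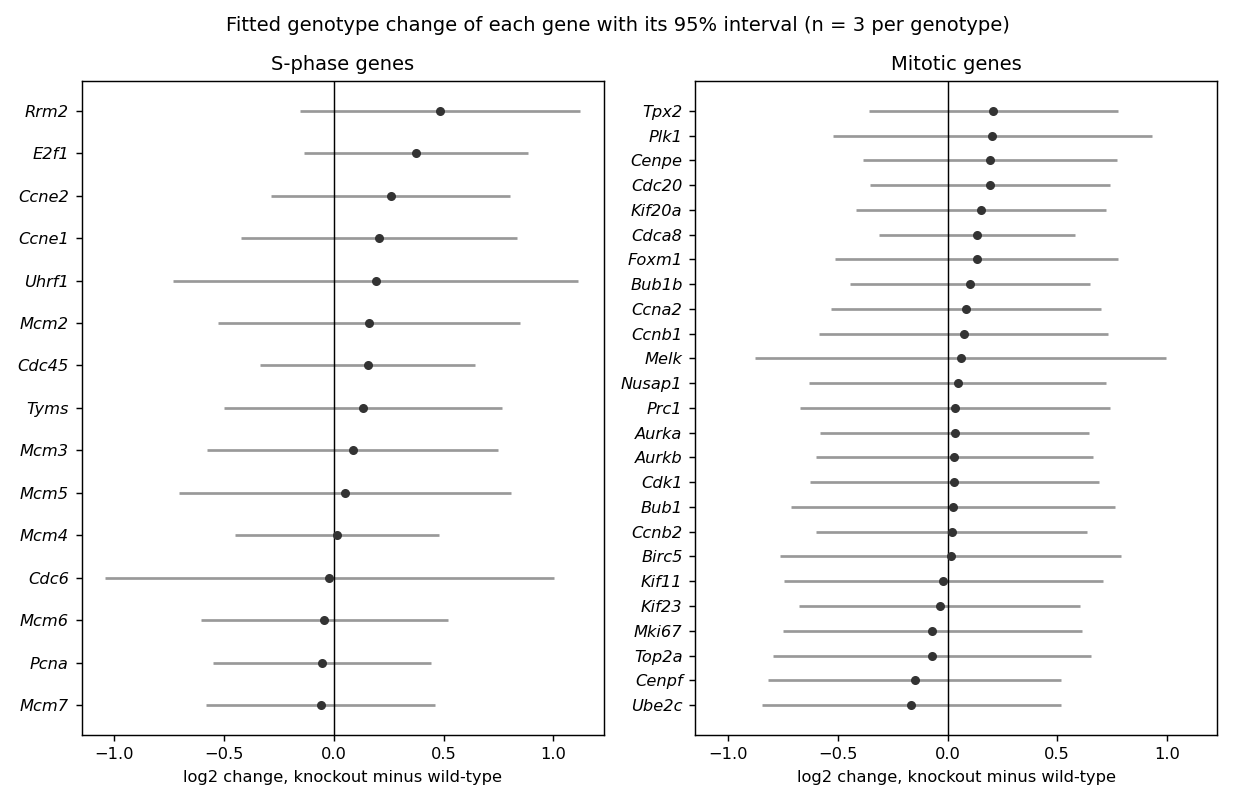
Fitted log2 change (knockout minus wild-type) of each of the 15 S-phase and 25 mitotic genes, with points for the edgeR estimate and bars for its 95% interval from 3 libraries per genotype. Each interval crosses 0, and Rrm2 has the largest estimate, at 0.48.

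The S-phase genes make nucleotides, load the replicative helicase and copy DNA. Pcna, the sliding clamp of DNA polymerase (ENSMUSG00000027342, mm10 chromosome 2, 132249162 to 132253314, minus strand), was the most abundant member per length in wild-type, at 29.5 CPM per kilobase of exon. Its level was 64.6, 64.7 and 83.5 CPM in wild-type replicates 1, 2 and 3 and 70.4, 49.98 and 84.5 CPM in knockout replicates 1, 2 and 3. The groups overlapped, with knockout replicate 2 below and knockout replicate 3 above each wild-type library, and the log2 change was −0.05 (95% interval −0.55 to 0.44, edgeR adjusted p = 0.983).

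The 6 subunits of the MCM helicase, which unwinds DNA at the replication fork, moved together across libraries. Mcm5 (ENSMUSG00000005410, mm10 chromosome 8, 75109569 to 75128439, plus strand) had 17.2, 21.9 and 29.0 CPM in wild-type and 22.6, 14.2 and 33.8 CPM in knockout replicates 1, 2 and 3. Knockout replicate 1 thus lay inside the wild-type range, knockout replicate 2 below it and knockout replicate 3 above it. Mcm2, Mcm3, Mcm4, Mcm6 and Mcm7 shared this order, each lowest in knockout replicate 2 and highest in knockout replicate 3. Log2 changes of the 6 subunits ran from −0.06 (Mcm7) to 0.16 (Mcm2), and the adjusted p from 0.953 (Mcm2) to 0.997 (Mcm4). Mcm6, whose promoter is printed above, had 40.2, 41.2 and 52.2 CPM in wild-type and 42.5, 29.8 and 57.4 CPM in knockout.

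Uhrf1, which brings the maintenance DNA methyltransferase to newly copied DNA, had the same order with a wider spread. It had 16.5, 21.1 and 32.2 CPM in wild-type replicates and 23.5, 14.6 and 41.7 CPM in knockout replicates. Cdc6, a loader of the helicase onto origins, had 3.99, 5.84 and 8.71 CPM in wild-type and 5.24, 3.30 and 9.80 CPM in knockout, and its interval of −1.04 to 1.00 was the widest among the S-phase genes. Tyms, the thymidylate synthase gene, followed with 9.16 CPM in knockout replicate 2 and 19.4 CPM in knockout replicate 3.

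Rrm2, the regulated subunit of ribonucleotide reductase, had the largest estimated change of the 40 genes. Its level was 19.3, 27.3 and 31.0 CPM in wild-type and 30.6, 27.4 and 50.6 CPM in knockout replicates 1, 2 and 3. Only knockout replicate 3 exceeded the highest wild-type library, and the log2 change of 0.48 ± 0.27 (SE) did not pass (edgeR adjusted p = 0.727). It was 0.16 without knockout replicate 3 and 0.31 without wild-type replicate 1. E2f1, one of the activating E2F factors, had 6.002, 8.11 and 6.23 CPM in wild-type and 7.35, 8.08 and 10.97 CPM in knockout (log2 0.37 ± 0.22, adjusted p = 0.743), and its change was 0.18 without knockout replicate 3. The E-type cyclin genes Ccne1 and Ccne2, whose products drive entry into S phase with CDK2, had log2 changes of 0.21 and 0.26, and Cdc45, a component of the active helicase, 0.15. Unlike the MCM genes, these 3 had their lowest value in a wild-type library.

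**Figure D2:**
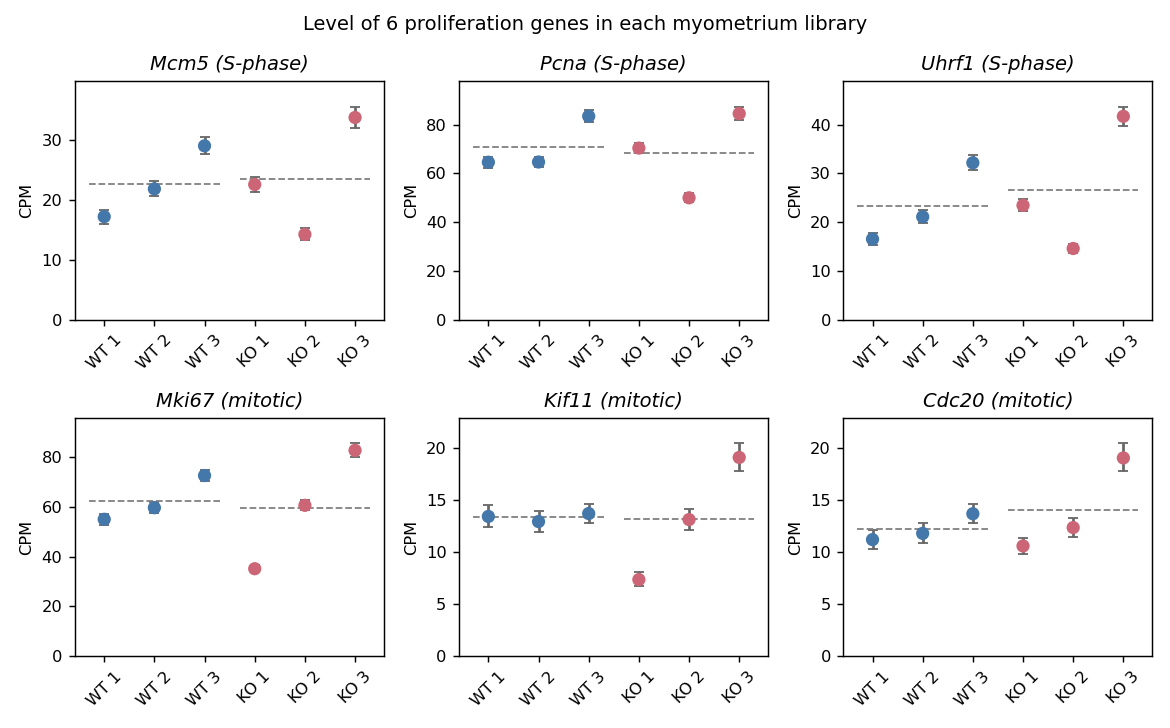
CPM of the S-phase genes Mcm5, Pcna and Uhrf1 and the mitotic genes Mki67, Kif11 and Cdc20 in each library, with 95% Poisson intervals for counting error as bars and group means as dashed lines. Knockout replicate 2 is the lowest library for the 3 S-phase genes and knockout replicate 1 for the 3 mitotic genes, while knockout replicate 3 is the highest for all 6.

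Mitotic genes did not pass either and had another order of libraries. Mki67, which encodes the proliferation marker Ki-67 (ENSMUSG00000031004, mm10 chromosome 7, 135689784 to 135716361, minus strand), had 55.0, 59.6 and 72.6 CPM in wild-type and 35.2, 60.6 and 82.7 CPM in knockout replicates 1, 2 and 3. Its group levels were 62.4 ± 9.10 and 59.5 ± 23.8 CPM (mean ± SD, n = 3 each), and the log2 change was −0.07 (95% interval −0.75 to 0.61, edgeR adjusted p = 0.984). The knockout values spanned the whole wild-type range, from below it to above it. The gene for topoisomerase 2 alpha, Top2a, which untangles sister chromatids, had 42.6, 44.4 and 53.7 CPM in wild-type and 27.5, 38.4 and 68.2 CPM in knockout.

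Among spindle motors, Kif11, the kinesin that pushes the spindle poles apart (ENSMUSG00000012443, mm10 chromosome 19, 37376403 to 37421859, plus strand), spread far wider in knockout than in wild-type. Its wild-type values lay close together at 13.5, 13.0 and 13.7 CPM, and the knockout values were 7.38, 13.2 and 19.1 CPM. Counting error alone gives 95% Poisson intervals of 6.73 to 8.08 CPM in knockout replicate 1 and 17.8 to 20.5 CPM in knockout replicate 3. Kif20a and Kif23, motors of the spindle midzone, and Prc1, which bundles its microtubules, had the same lowest and highest libraries, with log2 changes of 0.15, −0.04 and 0.03.

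The mitotic cyclins and their kinase behaved alike. Ccnb1, the main cyclin of CDK1, had 11.5, 11.1 and 12.9 CPM in wild-type and 8.27, 10.9 and 18.2 CPM in knockout. Ccnb2 had 10.4, 10.6 and 11.6 CPM against 7.62, 9.70 and 15.7, although counts on a pseudogene of its name amounted to 14.1% of its own, which makes its value uncertain. For Ccna2 and Cdk1 the log2 changes were 0.08 and 0.03, again with knockout replicate 1 lowest and knockout replicate 3 highest.

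Checkpoint, kinetochore and exit genes completed the set. Cenpf, a kinetochore protein gene, had 18.9, 17.4 and 21.5 CPM in wild-type and 9.98, 19.7 and 22.6 CPM in knockout, and at 0.518 of the wild-type mean it was the member furthest down in knockout replicate 1. Plk1, a kinase of mitotic entry and spindle assembly, had 8.81, 8.21 and 10.2 CPM in wild-type and 6.22, 9.84 and 15.3 CPM in knockout. Cdc20, the activator of the anaphase-promoting complex (ENSMUSG00000006398, mm10 chromosome 4, 118432901 to 118437352, minus strand), shares 53 exon bases with Elovl1 on the other strand and varied less, with 11.2, 11.8 and 13.7 CPM in wild-type and 10.6, 12.4 and 19.1 CPM in knockout. Cenpe, a kinetochore motor gene, had a log2 change of 0.19. The checkpoint genes Bub1 and Bub1b, the kinase genes Aurka and Aurkb and the chromosomal passenger gene Cdca8 had log2 changes of 0.02 to 0.13. Melk, a kinase gene of dividing cells, had the widest interval of the mitotic genes, −0.88 to 1.00.

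Foxm1, which encodes the factor that drives this programme, had the same lowest and highest libraries, at 11.2, 11.5 and 12.3 CPM in wild-type and 7.82, 13.0 and 17.5 CPM in knockout replicates 1, 2 and 3. Its log2 change was 0.13 ± 0.28. Ube2c, a ubiquitin-conjugating enzyme gene of the anaphase-promoting complex, had the lowest estimate of the 40 genes (−0.17 ± 0.29), Tpx2, a spindle assembly factor gene, the highest of the mitotic genes (0.21 ± 0.24), and Nusap1, a gene of a microtubule-binding protein, stood between them (0.05). Birc5, which encodes survivin, was the 1 mitotic gene not lowest in knockout replicate 1, with 5.98 CPM there and 5.37 CPM in knockout replicate 2.

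The knockout libraries differed among themselves more than the wild-type libraries did. The SD of log2 CPM was larger among knockout than among wild-type libraries for 15 of 15 S-phase and 25 of 25 mitotic genes, where 75.9% of all genes had this direction. The median SD was 0.47 and 0.24 for S-phase genes in knockout and wild-type, 0.57 and 0.16 for mitotic genes, and 0.32 and 0.17 over all genes. Knockout replicate 3 was the highest of the 6 libraries for 40 of 40 genes, against 21.3% of all genes, at 1.19 (Pcna) to 1.96 (Rrm2) of the wild-type mean for S-phase genes and 1.17 (Cenpf) to 1.76 (Melk) for mitotic genes. Among the wild-type libraries, replicate 3 was highest for 14 of 15 and 23 of 25 genes, against 37.4% of all genes.

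**Figure D3:**
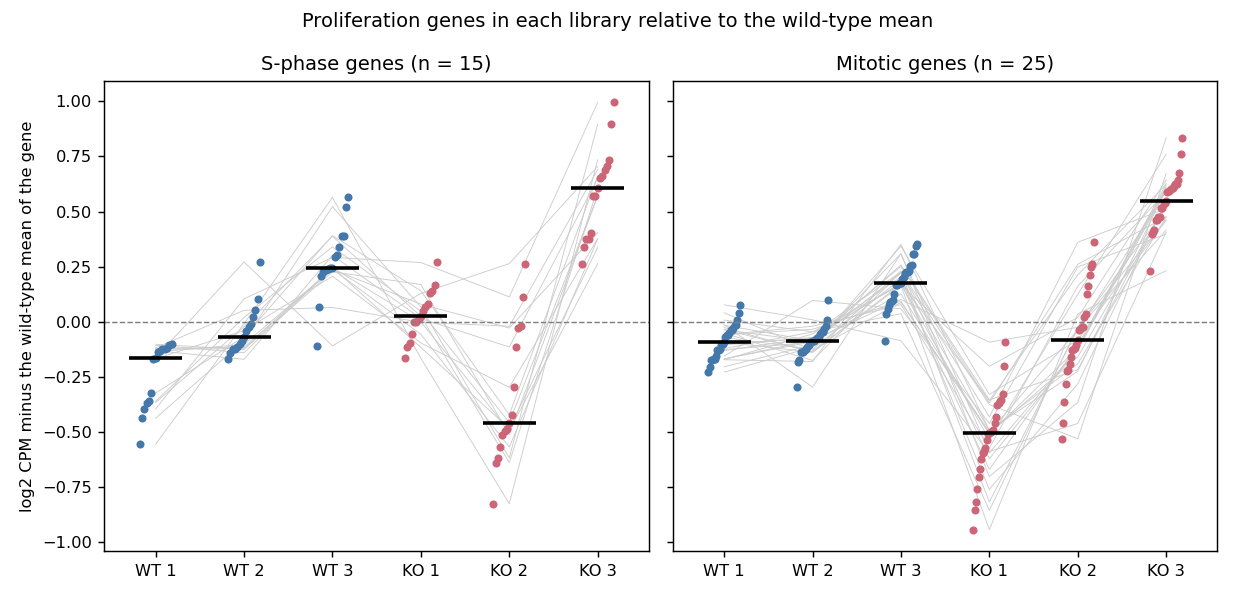
Log2 CPM of each gene in each library minus its wild-type mean, with a point and a thin line per gene and a black bar at the median of the 15 S-phase or 25 mitotic genes. Knockout replicate 2 has the lowest S-phase median (−0.46) and knockout replicate 1 the lowest mitotic median (−0.51), while knockout replicate 3 is highest in both panels (0.61 and 0.55).

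The other knockout libraries parted the 2 phases, a pattern noticed after the values had been seen. Knockout replicate 1 was the lowest of the 6 libraries for 24 of 25 mitotic genes and for 0 of 15 S-phase genes, against 24.0% of all genes. Knockout replicate 2 was lowest for 10 of 15 S-phase genes and 1 of 25 mitotic genes, against 20.9% of all genes. Set against each other, knockout replicate 1 was above knockout replicate 2 for 14 of 15 S-phase genes, the exception being E2f1, and for 1 of 25 mitotic genes, Birc5, where 48.5% of all genes were above. Mcm5 had 22.6 CPM (95% Poisson interval 21.4 to 23.8) in knockout replicate 1 and 14.2 (13.3 to 15.3) in knockout replicate 2, whereas Mki67 had 35.2 (33.7 to 36.6) and 60.6 (58.6 to 62.7). This compares 2 libraries, not conditions, and the intervals cover counting error only.

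Genes that overlap a neighbour were also set aside. Of the 40 genes, 13 share exon bases with another annotated gene, 10 of them mitotic, and their counts are uncertain. For genes with a partner on the opposite strand this holds because no source used here says whether counting used strand, while the partners of Top2a and Foxm1, and 2 of the 4 of Mcm7, lie on the same strand. Kif20a shares 1271 bases with Cdc23 and Ccne2 609 with Ints8, both on the opposite strand. Over the remaining genes, knockout replicate 1 was above knockout replicate 2 for 11 of 12 S-phase and 1 of 15 mitotic genes, and knockout replicate 3 was highest for all 12 and all 15.

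Most S-phase and mitotic genes outside the 40 had a similar order of libraries. Measured in the same 6 libraries and listed with earlier results known, they are not a separate test of the pattern. Of 40 other S-phase genes, 29 were higher in knockout replicate 1 than in knockout replicate 2, as were 9 of 55 other mitotic genes. Over all genes the share was 48.5%. Knockout replicate 1 was lowest for 7 of the 40 and 44 of the 55, against 24.0% of all genes. Knockout replicate 2 was lowest for 22 and 7, against 20.9%, and knockout replicate 3 was highest for 33 and 46, against 21.3%. Between genotypes, 0 of these 95 genes passed, against 0.0204% of all genes, and at an unadjusted p under 0.05 1 was lower and 0 were higher, against 8.56% of all genes in either direction.

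**Figure D4:**
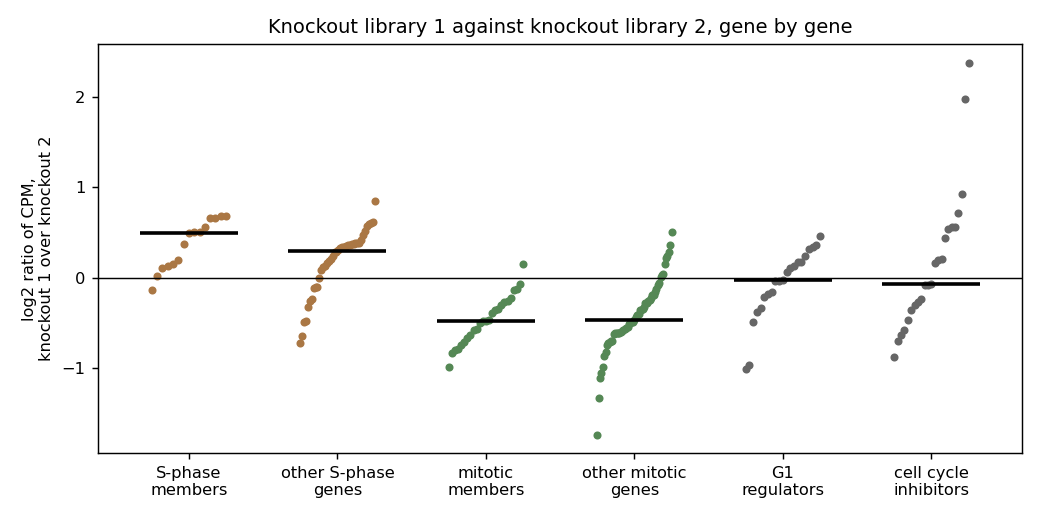
Log2 ratio of CPM in knockout replicate 1 over knockout replicate 2, with a point per gene and a bar at the median of each list. Above 0 lie 14 of 15 S-phase and 1 of 25 mitotic members, 29 of 40 other S-phase and 9 of 55 other mitotic genes, and 10 of 21 G1 regulators and 11 of 23 cell cycle inhibitors. Of all genes tested, which are not drawn, 48.5% would lie above 0.

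The 1 gene in that count was Cdc7, a kinase gene of origin firing, with 15.3, 17.4 and 16.0 CPM in wild-type and 9.06, 14.2 and 10.0 CPM in knockout replicates 1, 2 and 3. The groups did not overlap, as for 7.01% of all genes that were lower, and the log2 change of −0.55 ± 0.19 did not pass (edgeR adjusted p = 0.471). The other S-phase genes with the smallest p were Fen1, the flap endonuclease gene (log2 1.00, 0.375 to 2.17 CPM), Pold1, a DNA polymerase delta subunit gene (0.31), and Ung, the uracil-DNA glycosylase gene (0.58). Of the other mitotic genes these were Anln, which encodes the cytokinesis protein anillin (−0.53, with 30.3 CPM in knockout replicate 1 and 65.0 to 103.3 elsewhere), Mxd3 (0.30), Ckap2 (0.21) and Mad2l1 (−0.19). Leaving out 1 library gave 0.51 to 1.39 for Fen1 (lowest without knockout replicate 3), 0.12 to 0.46 for Pold1 (lowest without knockout replicate 3), 0.27 to 0.86 for Ung (lowest without knockout replicate 3, and 0.35 without wild-type replicate 1) and −0.79 to −0.22 for Anln (nearest 0 without knockout replicate 1, and −0.34 without wild-type replicate 1). For Mxd3 the lowest was 0.12 without knockout replicate 3, for Ckap2 0.07 without knockout replicate 2, and Mad2l1 ran from −0.43 without knockout replicate 3 to −0.04 without knockout replicate 2.

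Regulators of G1 and cell cycle inhibitors did not pass either (0 of 21 and 0 of 23), with median log2 changes of 0.06 and −0.06. Ccnd2, a D-type cyclin gene that acts before S phase, had 20.6, 20.4 and 16.1 CPM in wild-type and 25.4, 32.0 and 31.2 CPM in knockout. The groups did not overlap, and the log2 change of 0.63 ± 0.16 did not pass over all genes (unadjusted p = 0.00421, edgeR adjusted p = 0.307). DESeq2 called it (log2 0.64, adjusted p = 0.0442), and edgeR's quasi-likelihood test did not. Ccnd1, E2f2 and E2f5 had changes of 0.37, 0.53 and 0.25, and Ccnd1 had 0.20 without wild-type replicate 1 and 0.57 without wild-type replicate 3, E2f2 0.26 without knockout replicate 3. E2f5, with 16.9 to 19.7 CPM in wild-type and 20.5 to 22.9 in knockout, also had groups apart. The inhibitor genes Cdkn2d (5.12 to 6.55 CPM in wild-type, 7.61 to 8.70 in knockout) and Cdkn1a (48.7 to 56.8 and 60.7 to 92.6) also had non-overlapping groups, with adjusted p of 0.515 and 0.587. Groups were apart and higher for 2 of 21 regulators and 2 of 23 inhibitors, where 7.22% of all genes were. Without knockout replicate 1 the log2 change of Cdkn1a went from 0.43 to 0.22. Btg1, an antiproliferative gene, had a change of −0.37, which was −0.13 without knockout replicate 2 and −0.59 without knockout replicate 3. Cdkn1c, which encodes the inhibitor p57, had 60.4 CPM in knockout replicate 1 and 9.85 to 14.8 CPM in each of the other 5 libraries. Its log2 change of 1.20 ± 0.66 became −0.12 without knockout replicate 1.

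Marker lists of other cell types also differed between libraries, in several orders, and not all followed the proliferation genes. In knockout replicates 1, 2 and 3, B and plasma cell markers summed to 75.2, 199.8 and 88.0 CPM and endothelial markers to 645.5, 868.9 and 473.9 CPM. In wild-type replicates 1, 2 and 3 the sums were 43.5, 49.4 and 14.9 CPM and 747.4, 669.9 and 625.9 CPM. Markers of T and NK cells summed to 31.5, 23.4 and 23.9 CPM there, and macrophage markers to 2122, 1902 and 2358 CPM. In knockout replicate 1 the 18 placental and trophoblast markers summed to 461.4 CPM, against 13.3 and 1.25 in knockout replicates 2 and 3 and 39.1 to 58.8 in wild-type, with 12 of the 13 tested above knockout replicate 2. Synb, a marker of fused trophoblast, had no count in 5 libraries including knockout replicate 1, and Gcm1 had none there. Erythroid markers, of which 11 of 12 were in the table, summed to 387.2 CPM in knockout replicate 1, to 121.9 and 179.4 in the other knockout libraries and to 100.3 to 166.5 in wild-type.

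Summed over the list, uterine epithelial markers had nearly the library order of the S-phase genes. Their sum was 1895, 1261 and 2829 CPM in wild-type and 2086, 715.8 and 3684 CPM in knockout replicates 1, 2 and 3, beside S-phase sums of 281.5, 314.2 and 413.0 and 335.3, 251.1 and 494.3 CPM. All 10 of these markers, of which none was at 0, were higher in knockout replicate 1 than in knockout replicate 2, and 8 of 10 were highest in knockout replicate 3. Single markers departed from the order of the sum. From wild-type replicate 1 to knockout replicate 1, Krt8 went from 364 to 526 CPM, but Cdh1 from 191 to 128 CPM. Foxa2 was lowest in knockout replicate 3, at 0.526 CPM. Mitotic sums were 370.3, 371.8 and 464.2 CPM in wild-type and 265.6, 385.8 and 593.6 CPM in knockout. Smooth muscle markers were lowest in knockout replicate 3, at 15370 CPM, where both sets of proliferation genes were highest. Among the wild-type libraries, smooth muscle markers were lowest in replicate 3, at 27070 CPM against 30970 and 30370. The S-phase and mitotic sums of wild-type were also highest in that library. The part of these cell types in the values of the proliferation genes was not tested.

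**Figure D5:**
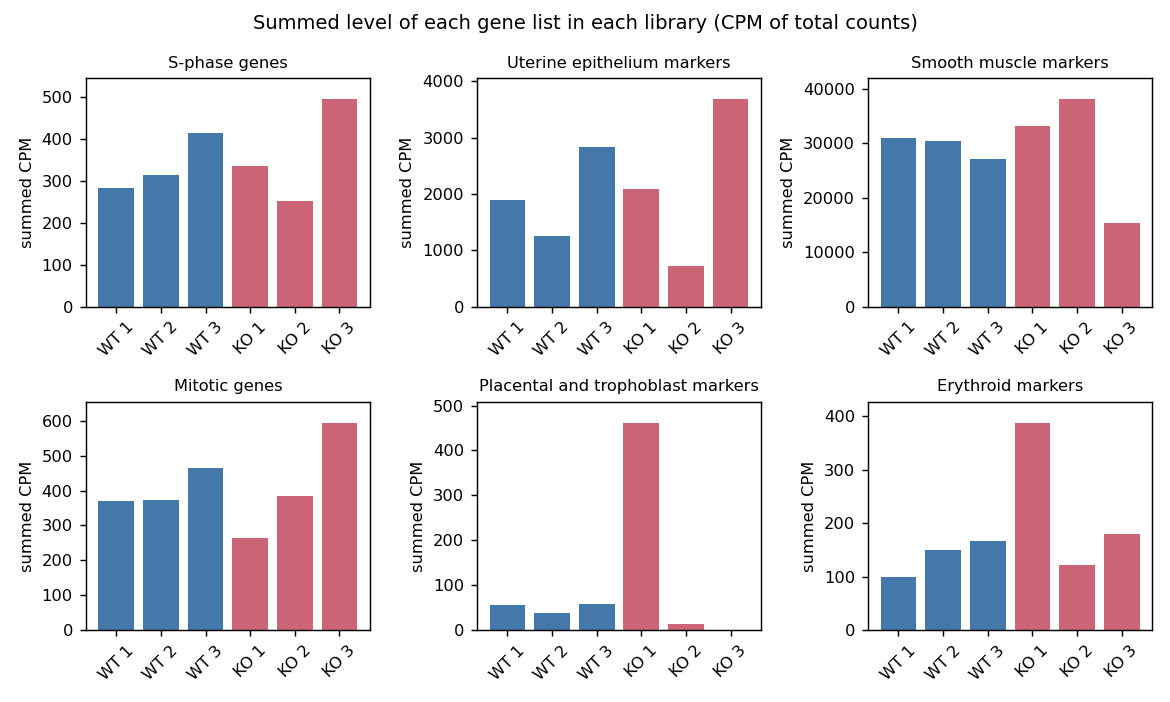
Summed CPM of the S-phase and mitotic genes and of 4 marker lists in each library, wild-type in blue and knockout in red, as bars from 0. Epithelial markers are lowest in knockout replicate 2 and highest in knockout replicate 3, as the S-phase genes are, and placental and erythroid markers peak in knockout replicate 1, where the mitotic genes are lowest.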

How the data were processed

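Per the submitters' processing notes, the tools were HISAT2 2.2.1, HTSeq 0.9.1, FastQC 0.73 and DESeq2 2.11.40.7 and the build was mm10, with no role or order given. Which annotation release and strand setting were used is not stated. The authors deposited raw counts per Ensembl gene for each of 6 libraries. Their deposited table of normalized signal equals each library's counts times 1 constant (0.804 to 1.26); it supplied symbols and positions, printed counting from 1.

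The members and the gene lists were chosen with earlier results of these data known. Counts were tested with edgeR 4.0.16 in R 4.3.3 (filterByExpr, TMM, quasi-likelihood fit, Benjamini-Hochberg adjusted p under 0.05 over 19599 genes), and the pipeline was checked on simulated counts. CPM of single genes use TMM-scaled library sizes and summed CPM use total counts. Log2 changes carry their standard error after ±. Exon lengths and overlaps came from GENCODE M21, which held 54804 of 55055 identifiers. The text names members and, from each other cell cycle list, up to 4 genes with the smallest p. The p-values rest on counting error and on the spread between libraries, 1 per animal. The fit draws the spread of each gene towards that of other genes.

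Replicate numbers, which the titles share between genotypes, are not said to pair animals, and they were treated as pairs only in an alternative fit. Deviations from the group mean correlated across genes at 0.147, 0.196 and 0.217 for same-numbered libraries and at −0.223 to 0.0611 for others. Deviations within a group sum to 0, which ties these correlations to each other, so they are not separate observations. By themselves they neither show nor exclude pairing. The other settings tried were upper-quartile and RLE scaling, no filter, a filter of CPM of at least 1 in 3 libraries, DESeq2 1.42.0, limma-voom and limma-trend (limma 3.58.1, log2 of deposited values plus 1), leaving out each library and, chosen after seeing the data, scalings of the library order.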

Additional observations from a re-analysis of the deposited data

How the results depend on the processing

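Under each alternative run, 0 of 15 S-phase and 0 of 25 mitotic genes were called in either direction, and the smallest adjusted p of any member was 0.384, without knockout replicate 2. Over all genes, calls depended on the tool: against 0 higher and 4 lower, upper-quartile scaling gave 4 and 8, no filter 47 and 34, and DESeq2 248 and 138, and the cause was not tested. Leaving out 1 library gave 0 to 3 higher and 1 to 4 lower genes. In the paired fit, with replicate as a block, all-gene calls were 2 higher and 5 lower, the median log2 change was 0.08 for S-phase and −0.04 for mitotic genes, and the block changed no call among the members. Ccnd2 was called by DESeq2 (log2 change 0.639, DESeq2 adjusted p = 0.0442). The order of libraries was the same under RLE, upper-quartile and unscaled totals, except that knockout replicate 1 was lowest for 23 rather than 24 mitotic genes. The members' 95% intervals differed in width, from −0.31 to 0.58 (Cdca8) to −1.04 to 1.00 (Cdc6), and differences inside a member's interval are not shown to be absent.

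Signs of the members' small changes depended on the fit: of 40, 26 changed sign without knockout replicate 3, 12 without wild-type replicate 1, 9 without wild-type replicate 2, 8 without wild-type replicate 3, 7 without knockout replicate 1 and 6 without knockout replicate 2, and 0 with RLE scaling, DESeq2 or the stricter filter. The cause was not tested. With limma-voom the log2 change had the opposite sign for Mcm4 (−0.0179), Mcm5 (−0.0268), Cdk1 (−0.0758), Ccna2 (−0.0088), Ccnb1 (−0.0409), Ccnb2 (−0.0817), Aurka (−0.018), Aurkb (−0.0483), Bub1 (−0.0968), Birc5 (−0.121), Nusap1 (−0.0741), Prc1 (−0.092) and Melk (−0.14). With limma-trend the log2 change had the opposite sign for Mcm4 (−0.00955), Mcm5 (−0.00678), Cdk1 (−0.0426), Ccnb1 (−0.00483), Ccnb2 (−0.048), Aurkb (−0.0146), Bub1 (−0.0549), Birc5 (−0.082), Nusap1 (−0.0404), Prc1 (−0.0581) and Melk (−0.0826). With the block the log2 change had the opposite sign for Mcm4 (−0.00496), Cdk1 (−0.0374), Ccnb2 (−0.043), Aurkb (−0.00954), Bub1 (−0.048), Birc5 (−0.0767), Nusap1 (−0.0362), Prc1 (−0.0518) and Melk (−0.076). With upper-quartile scaling the log2 change had the opposite sign for Cdc6 (0.0126) and Kif11 (0.00788). Without a filter on low counts the log2 change had the opposite sign for Birc5 (−0.00301). Leaving out each library in turn gave log2 changes with these lowest and highest values for genes whose sign changed: Mcm3 (−0.212 to 0.309), Mcm4 (−0.203 to 0.155), Mcm5 (−0.303 to 0.315), Uhrf1 (−0.292 to 0.494), Cdk1 (−0.361 to 0.245), Ccnb2 (−0.327 to 0.233), Aurka (−0.226 to 0.223), Aurkb (−0.3 to 0.204), Bub1 (−0.367 to 0.276), Birc5 (−0.464 to 0.234), Prc1 (−0.369 to 0.299), Melk (−0.548 to 0.343) and Cdc6 (−0.535 to 0.309). Further ranges of this kind were those of Mcm6 (−0.302 to 0.17), Mcm7 (−0.301 to 0.121), Pcna (−0.238 to 0.132), Mki67 (−0.384 to 0.206), Top2a (−0.511 to 0.19), Kif23 (−0.359 to 0.164), Ube2c (−0.547 to 0.0213), Cenpf (−0.381 to 0.138), Kif11 (−0.385 to 0.277), Cdkn1c (−0.12 to 1.59), Ccne1 (−0.0672 to 0.373), Ccne2 (−0.0152 to 0.387) and Mcm2 (−0.146 to 0.396). The remaining ranges were those of Tyms (−0.142 to 0.379), Ccna2 (−0.255 to 0.317), Ccnb1 (−0.307 to 0.305), Cdc20 (−0.0944 to 0.366), Cdca8 (−0.062 to 0.242), Bub1b (−0.0696 to 0.328), Kif20a (−0.0336 to 0.368), Plk1 (−0.177 to 0.478), Tpx2 (−0.0518 to 0.434), Nusap1 (−0.343 to 0.294) and Foxm1 (−0.163 to 0.397).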
